A study of Mus musculus with 12 samples.

Results

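Livers of calorie-restricted, weight-matched sham-operated mice (Sham-WM) are compared here with livers of sham-operated mice that ate without limit (Sham-Ad lib). The members are the 4 Sham-WM samples (mice 2F, 9F, 15F and 16F) and the 4 Sham-Ad lib samples (mice 3F, 4F, 6F and 10F), so 8 of the 12 samples of the series. The other 4 samples come from mice after vertical sleeve gastrectomy (VSG), an operation that removes most of the stomach. All were C57BL/6 mice aged 21 weeks with diet-induced obesity. Both groups compared had a sham operation. After it, Sham-Ad lib mice went back to free feeding, and the food of Sham-WM mice was limited so that their weight followed that of the VSG group. The comparison asks what a lower weight reached by eating less, without the gastrectomy, goes with in the liver. The labels give neither the clock time of collection nor the hours at which the restricted mice were fed.

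Each sample is the poly(A) RNA of 1 liver, read as counts on genes. Gene counts summed to between 16859076 and 18297907 per sample in the Sham-Ad lib group and to between 17683302 and 19384076 in the Sham-WM group. Each mouse was placed by the animal number that the name of its count column and its sample title share. Another field of the labels pairs the titles with columns that carry other animals' numbers. Under that second reading, edgeR called 0 genes between the groups, with 715 genes at an unadjusted p under 0.05. The numbers that follow the animal numbers in the column names are consecutive within each group and do not mix between groups. A difference between runs or batches ordered in that way would look the same as an effect of treatment, and the data offer no means to separate them.

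The samples carried the markers of liver. Albumin (Alb), the main protein hepatocytes secrete into blood, took 8.71%, 7.82%, 9.45% and 7.94% of the counts in Sham-Ad lib mice 3F, 4F, 6F and 10F. In Sham-WM mice 2F, 9F, 15F and 16F it took 9.46%, 10.5%, 11.1% and 12.2%. The ranges of Alb touch at about the same share, and its difference did not pass the test (log2 fold change 0.32, adjusted p = 0.443). None of the 5 hepatocyte markers (Alb, Ttr, Apoa1, Hnf4a and Cebpa) was called. Of defining markers of other tissues, Lep of adipocytes, Cpa1 and Pnlip of pancreatic acinar cells and Ckm of muscle had 0 counts in all 8 samples. Adipoq of adipocytes had counts in 2 of the 8, Plin1 of adipocytes and Prss2 of acinar cells in 1, Acta1 of muscle in 4 and Myh4 of muscle in 2. Cela2a of acinar cells had counts in all 8, between 0.0510 and 0.940 CPM.

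Of 46078 genes in the table, 13054 passed the filter on low counts and were tested. At a Benjamini-Hochberg adjusted p under 0.05, which is what called means from here on, 912 genes (6.99%) differed. Of these, 461 (3.53%) were higher and 451 (3.45%) were lower in Sham-WM mice. The median log2 fold change over all genes tested was 0.00079, so about as many genes lay above 0 as below. The 4 values of each group did not overlap for 2294 genes (17.6%), and 874 of the 912 called genes were among them. A change of more than 2-fold was reached by 286 called genes, 135 higher and 151 lower. On the first principal component of the 8 samples, which held 47.6% of the variance of the 500 most variable genes, Sham-Ad lib mice lay between -24.4 and -7.18 and Sham-WM mice between 9.12 and 22.8. The second component held 16.0%, and there mouse 4F stood apart from the other Sham-Ad lib mice at 21.0. The count of called genes moved by over 1.5 times when a single mouse was left out: it was 424 without Sham-WM mouse 16F, 445 without Sham-WM mouse 15F, 506 without Sham-Ad lib mouse 10F, 543 without Sham-Ad lib mouse 3F and 554 without Sham-Ad lib mouse 6F. With DESeq2 in place of edgeR, and with a p-value for 23085 genes in place of 13054, it was 1433. DESeq2 filters again before it adjusts p, and the number of genes adjusted was not counted. A fit of only the 2 sham groups called 1399, and a test against a fold of 1.2 called 330. With 2 RUVs factors, which model unwanted variation, the count was 1723, and with 2 RUVr factors it was 2193.

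**Figure D1:**
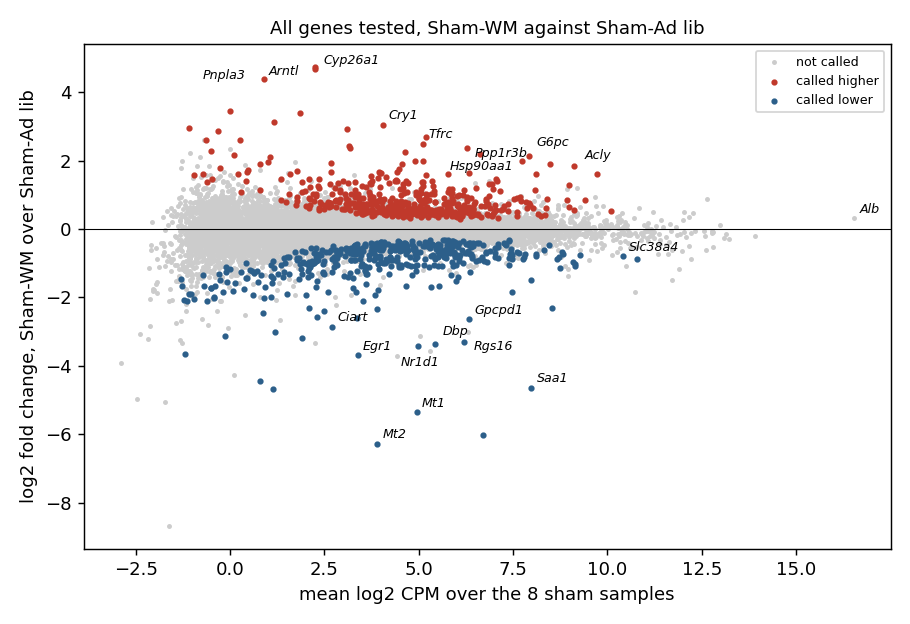
Log2 fold change of Sham-WM over Sham-Ad lib against the mean log2 CPM (a gene's share of its sample's counts, scaled) of the 8 sham samples for the 13054 genes tested. Red points are the 461 genes called higher, blue points the 451 called lower, and grey points were not called. Mt1 and Mt2 lie among the lowest called points, Arntl and Cyp26a1 among the highest.

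The plot of all genes by level shows called genes on both sides, with only 3 of them at a mean of more than 10 on the log2 scale. Alb lies at the far right and was not called. The genes described below were taken from 61 lists of pathways and cell types and from the genes with the largest changes, as set out with the processing. Counts of called genes in these lists are to be read against the 6.99% of all genes called, 3.53% higher and 3.45% lower.

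The liver keeps a molecular clock in nearly every cell. In its positive arm, the proteins of Arntl (also called Bmal1) and Clock bind E-box sequences and switch on their own repressors, the period and cryptochrome genes, together with Nr1d1, Dbp and other targets. Nr1d1 and Nr1d2 encode the REV-ERB repressors, which act on Arntl and so close a second loop. The liver is also the organ that stores glucose as glycogen, makes fat from carbohydrate, exports both, and adjusts these tasks to fasting and feeding.

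Clock genes were among the largest changes. Of 16 tested genes of the core clock, 4 rose and 4 fell (median log2 fold change 0.05, against 0.00079 over all genes). Of 12 clock output genes, 2 rose and 3 fell (median -0.57). These are 50% and 41.7% of the tested members, against 6.99% of all genes called. Values per sample are given below in CPM normalized by the TMM method, in the order 3F, 4F, 6F and 10F for Sham-Ad lib and 2F, 9F, 15F and 16F for Sham-WM.

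Arntl, the transcription factor of the positive arm, was at 0.558, 1.61, 0.703 and 0.941 CPM in Sham-Ad lib and 11.8, 29.7, 25.9 and 31.1 CPM in Sham-WM mice. The lowest Sham-WM mouse, 2F, was still several times above the highest Sham-Ad lib mouse, 4F. The log2 fold change was 4.68 (SE 0.38, n = 4 per group, adjusted p = 4.42e-05). Its partner Clock was at 34.3, 31.4, 29.8 and 21.1 CPM and 36.1, 50.1, 55.4 and 68.5 CPM, with no overlap but with mouse 3F close to mouse 2F (log2 fold change 0.85, SE 0.21, adjusted p = 0.0286). The change of Clock was smaller than that of Arntl, and its call was lost without mouse 4F, 6F, 10F, 15F or 16F (adjusted p up to 0.0987) and in a test against a fold of 1.2 (0.0896). Cry1, a cryptochrome that represses the positive arm, was at 5.80, 2.63, 7.14 and 8.41 CPM in Sham-Ad lib and 35.1, 49.1, 56.0 and 58.4 CPM in Sham-WM mice, again with every Sham-WM mouse above every Sham-Ad lib mouse (log2 fold change 3.05, SE 0.39, adjusted p = 0.000653).

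The REV-ERB genes went the other way. Nr1d1 was at 137, 119, 96.8 and 74.4 CPM in Sham-Ad lib and 11.8, 8.09, 13.3 and 6.58 CPM in Sham-WM mice. All 4 Sham-WM mice lay far below the lowest Sham-Ad lib mouse, 10F, and the fall was 10.7-fold (log2 fold change -3.42, SE 0.34, adjusted p = 8.88e-05). Nr1d1 overlaps Thra on the other strand, and since the strand setting of the counting is not given, part of its counts could be from that gene. Nr1d2 has no such neighbour and was at 137, 112.8, 137 and 134 CPM and 60.2, 59.5, 63.4 and 33.8 CPM. Mouse 16F was the lowest of all 8, and the groups did not overlap (log2 fold change -1.26, SE 0.17, adjusted p = 0.000977). Ciart, a repressor of the positive arm, fell from 14.7, 15.7, 20.3 and 19.8 CPM to 3.47, 1.89, 1.73 and 2.65 CPM (log2 fold change -2.85, SE 0.21, adjusted p = 4.42e-05). Bhlhe41, a repressor that also binds E-boxes, fell from 6.81, 3.97, 7.57 and 7.65 CPM to 0.408, 1.43, 0.765 and 0.563 CPM, a low level in Sham-WM mice (log2 fold change -3.02, SE 0.35, adjusted p = 0.000347). In both genes all Sham-WM mice lay below all Sham-Ad lib mice.

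The period genes Per1 and Per2 were not called. Per1 was at 38.3, 35.2, 42.5 and 33.1 CPM in Sham-Ad lib and 40.0, 19.4, 28.9 and 57.1 CPM in Sham-WM mice (log2 fold change -0.04, adjusted p = 0.963). The Sham-WM mice of Per1 spread on both sides of all Sham-Ad lib mice, with 9F lowest and 16F highest. Per2 was at 34.7, 24.8, 40.7 and 41.0 CPM and 61.8, 33.4, 51.3 and 61.9 CPM, with Sham-WM mouse 9F inside the Sham-Ad lib range (log2 fold change 0.56, adjusted p = 0.165). With 2 RUVr factors, which model unwanted variation, Per2 was called (adjusted p = 0.0448).

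Among the output genes, Dbp, a D-box binding activator that is a direct target of the positive arm, was at 156, 110.9, 146 and 166 CPM in Sham-Ad lib and 23.1, 12.7, 13.01 and 7.60 CPM in Sham-WM mice. Each Sham-WM mouse was well below each Sham-Ad lib mouse (log2 fold change -3.35, SE 0.28, adjusted p = 4.42e-05). Its relative Tef fell less, from 228, 178, 253 and 244 CPM to 125, 126, 140.3 and 112.5 CPM (log2 fold change -0.84, SE 0.14, adjusted p = 0.00344). Nfil3, which represses the D-box sites that Dbp and Tef activate, rose from 11.998, 23.1, 16.1 and 14.1 CPM to 26.4, 44.5, 44.8 and 33.3 CPM (log2 fold change 1.19, SE 0.22, adjusted p = 0.00692). So Dbp and Tef fell and their repressor rose, with no overlap between the groups in any of the 3. Hlf, a further D-box activator in the clock lists, was not called. Dbp overlaps Sphk2 and Tef overlaps Gm17597 on the other strand. Ciart overlaps a noncoding gene on the other strand as well. Clock and Nr1d2 were chosen after their values were seen. The calls of Arntl, Cry1, Nr1d1, Nr1d2, Ciart, Bhlhe41, Dbp, Tef and Nfil3 held under all alternatives that kept the grouping by animal number and in which the gene was tested; Arntl and Bhlhe41 were filtered out where at least 10 counts in every sample were required.

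**Figure D2:**
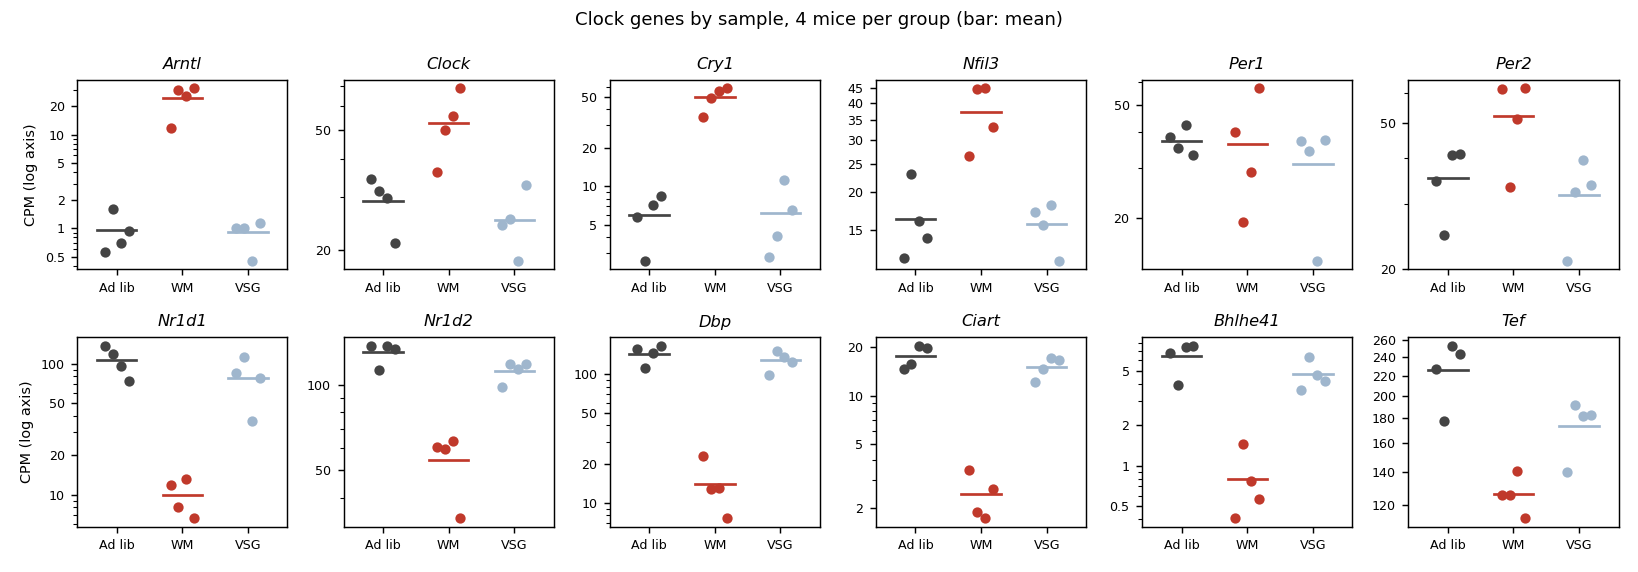
CPM on a log axis of 12 clock genes in each sample of Sham-Ad lib, Sham-WM and VSG, 4 mice per group, with a bar at each group's mean. Arntl, Clock, Cry1 and Nfil3 are higher in all 4 Sham-WM mice than in any Sham-Ad lib mouse, Nr1d1, Nr1d2, Dbp, Ciart, Bhlhe41 and Tef are lower, and the groups overlap in Per1 and Per2.

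In the plot of clock genes by sample, the VSG mice sit near the Sham-Ad lib mice for Arntl, Cry1, Ciart and Dbp. Tested directly, Sham-WM differed from VSG in Arntl (log2 fold change 4.72, adjusted p = 2.11e-05), Cry1 (3.03, adjusted p = 0.000417), Ciart (-2.63, adjusted p = 2.11e-05) and Dbp (-3.18, adjusted p = 3.15e-05). Both contrasts use the same 4 Sham-WM mice, so they are not independent.

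Promoter sequence was looked at because clock genes were among the largest changes, in both directions, and the E-box is the site of the positive arm. The promoters are RefSeq sequences of build GRCm38.p6, 250 bases before to 50 bases after a gene's start, and 10114 of the 13054 tested genes had one. The E-box CACGTG, which reads the same on both strands, was in 11.7% of these promoters, in 13.8% of those of genes called higher and in 15.9% of those of genes called lower. In the clock lists it was in the promoters of 2 of 5 genes called higher, 3 of 7 called lower and 2 of 10 not called. Arntl, Nr1d1, Nr1d2 and Dbp had none in this window, from which nothing follows about the factor. Lonrf3 of the clock output list, called higher (log2 fold change 1.69, adjusted p = 0.0404), also holds an E-box and is not shown. The 4 promoters below are shown because each holds an E-box and its gene changed. They are written 5' to 3' on the gene's own strand with the E-box in capitals, from chr3:95882179-95882478 (minus strand) for Ciart, chr15:81802423-81802722 (plus strand) for Tef, chr6:145865371-145865670 (minus strand) for Bhlhe41 and chr10:85185005-85185304 (minus strand) for Cry1.
Ciart: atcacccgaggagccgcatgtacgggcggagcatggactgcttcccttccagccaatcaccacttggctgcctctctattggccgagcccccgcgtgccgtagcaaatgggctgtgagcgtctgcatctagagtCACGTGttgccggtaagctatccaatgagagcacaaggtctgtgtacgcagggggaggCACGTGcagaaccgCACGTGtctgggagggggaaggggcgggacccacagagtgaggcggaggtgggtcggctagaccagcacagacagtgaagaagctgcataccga
Tef: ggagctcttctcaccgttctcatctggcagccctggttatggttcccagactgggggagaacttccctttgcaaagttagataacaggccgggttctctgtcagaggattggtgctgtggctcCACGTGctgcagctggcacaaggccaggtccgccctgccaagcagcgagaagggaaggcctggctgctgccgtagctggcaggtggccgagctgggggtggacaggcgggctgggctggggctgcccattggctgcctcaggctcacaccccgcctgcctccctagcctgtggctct
Bhlhe41: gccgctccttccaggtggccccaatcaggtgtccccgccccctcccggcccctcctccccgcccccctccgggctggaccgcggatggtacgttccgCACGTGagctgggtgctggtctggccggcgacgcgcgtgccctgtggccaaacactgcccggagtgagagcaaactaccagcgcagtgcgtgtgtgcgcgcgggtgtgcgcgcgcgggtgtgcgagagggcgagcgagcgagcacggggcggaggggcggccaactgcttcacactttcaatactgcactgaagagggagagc
Cry1: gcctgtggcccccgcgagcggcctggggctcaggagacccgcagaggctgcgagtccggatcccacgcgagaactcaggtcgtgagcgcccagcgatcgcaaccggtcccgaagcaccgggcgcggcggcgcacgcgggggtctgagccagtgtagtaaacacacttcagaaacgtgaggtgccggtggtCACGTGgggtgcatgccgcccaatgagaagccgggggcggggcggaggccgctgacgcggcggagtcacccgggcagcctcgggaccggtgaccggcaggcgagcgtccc

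Ciart holds 3 E-boxes in its window, which was so for 0.158% of all promoters searched, and Tef, Bhlhe41 and Cry1 hold 1 each. Of the 4 genes, Ciart, Tef and Bhlhe41 fell and Cry1 rose, so the same letters stood before genes that went opposite ways. The D-box TTATGTAA, searched on both strands, was in 0.722% of all promoters, 0.552% of those of genes called higher and 0.824% of those called lower. The cyclic AMP response element TGACGTCA was in 3.44%, 4.70% and 3.57%. The core TAGGTCA to which REV-ERB proteins bind, searched on both strands and chosen after seeing the data, was in 2.51% of all promoters, 4.14% of those called higher and 2.75% of those called lower. In the clock lists this core was in the promoters of Arntl and Nfil3, both called higher, and in none of the 7 genes called lower or the 10 not called. A match is a description of the letters and not a site in use.

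Metallothioneins, small proteins that bind zinc and copper, had some of the largest falls of all called genes. Mt1 was at 49.3, 260.1, 137 and 519.6 CPM in Sham-Ad lib and 9.38, 7.22, 3.11 and 3.88 CPM in Sham-WM mice. Mt2 was at 21.7, 247, 87.9 and 313 CPM and 4.28, 1.64, 1.22 and 1.46 CPM. In both genes Sham-Ad lib mice varied widely, with 3F lowest and 10F highest, and still every Sham-WM mouse was lower than 3F. The acute phase genes Saa1 and Saa2, given below, put the Sham-Ad lib mice in the same order, 3F, 6F, 4F and 10F from low to high. Whether the falls of metallothioneins and acute phase genes are linked was not tested. The fall was 40.8-fold for Mt1 (log2 fold change -5.35, SE 0.65, adjusted p = 0.000453) and 77.3-fold for Mt2 (log2 fold change -6.27, SE 0.76, adjusted p = 0.000453). Without 10F the log2 fold change of Mt1 was -4.66, and with 2 RUVs factors, which model unwanted variation, that of Mt2 was -5.64. VSG mice were at 698, 632, 672 and 372 CPM of Mt1, all above 3F, 4F and 6F, and Sham-WM differed from VSG by -6.65 on the log2 scale (adjusted p = 9.89e-05).

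Metallothionein promoters are known for metal response elements, the sites of the zinc sensor MTF-1. They are shown because they hold matches and belong to genes with some of the largest falls, and the motif was chosen after seeing the data. Its core was searched as TGCGCNC and TGCACNC on both strands. At least 1 match of either form was in 39.8% of all promoters, and at least 3 matches were in 3.79%. The windows are chr8:94178839-94179138 for Mt1 and chr8:94172368-94172667 for Mt2, both on the plus strand, with matches in capitals.
Mt1: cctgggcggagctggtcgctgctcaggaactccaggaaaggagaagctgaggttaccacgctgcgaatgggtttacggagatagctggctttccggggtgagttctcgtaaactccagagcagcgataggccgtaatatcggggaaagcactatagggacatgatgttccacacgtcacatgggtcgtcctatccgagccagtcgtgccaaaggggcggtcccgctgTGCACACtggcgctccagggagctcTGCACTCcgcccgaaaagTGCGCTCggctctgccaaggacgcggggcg
Mt2: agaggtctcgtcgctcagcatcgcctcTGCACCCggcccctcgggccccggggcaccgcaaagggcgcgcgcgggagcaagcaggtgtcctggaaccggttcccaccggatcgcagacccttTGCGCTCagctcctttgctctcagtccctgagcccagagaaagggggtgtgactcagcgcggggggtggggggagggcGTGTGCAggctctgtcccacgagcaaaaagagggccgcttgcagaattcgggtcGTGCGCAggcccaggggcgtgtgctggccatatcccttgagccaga

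Mt1 holds 3 matches and Mt2 holds 4, in windows that do not overlap on chromosome 8. TGCGCNC was in 29.5% of all promoters, 32.6% of those of genes called higher and 29.7% of those called lower, and TGCACNC in 15.3%, 15.5% and 16.5%.

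Of 8 tested genes of the list of metallothioneins and zinc, Mt1 and Mt2 among them, 2 rose and 2 fell (median log2 fold change -0.06), against 6.99% of all genes called. Slc30a10, a transporter that exports manganese from hepatocytes, was at 18.6, 15.1, 15.8 and 11.3 CPM in Sham-Ad lib and 45.9, 50.4, 68.3 and 78.9 CPM in Sham-WM mice (log2 fold change 2.00, SE 0.21, adjusted p = 0.000155). Slc39a10, a zinc importer, was at 2.96, 2.41, 3.52 and 1.44 CPM and 5.45, 6.35, 7.80 and 8.95 CPM (log2 fold change 1.46, SE 0.27, adjusted p = 0.00754). In both, the lowest Sham-WM mouse was above the highest Sham-Ad lib mouse. Of 17 genes of iron handling 2 rose, against 3.53% of all genes, and 0 fell (median -0.08). Tfrc, the receptor that takes up transferrin-bound iron, was at 10.4, 24.7, 17.1 and 10.2 CPM and 49.2, 67.5, 106.3 and 129 CPM, with all Sham-WM mice above all Sham-Ad lib mice and 15F and 16F highest (log2 fold change 2.49, SE 0.34, adjusted p = 0.00123).

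Every heat shock gene that was called was higher, and 9 were not called. Of 17 tested chaperones and co-chaperones, 8 rose and 0 fell (47.1% called, against 6.99% of all genes). All 17 had a log2 fold change above 0, and their median was 0.72. Over the alternatives with the same grouping, between 4 and 13 rose. Hsp90aa1, the inducible form of the chaperone HSP90, was at 164, 169.7, 175 and 132 CPM in Sham-Ad lib and 561, 333, 510.1 and 554 CPM in Sham-WM mice. Even Sham-WM mouse 9F, the lowest of its group, was well above every Sham-Ad lib mouse (log2 fold change 1.61, SE 0.19, adjusted p = 0.000374). Stip1, which hands clients from HSP70 to HSP90, was at 65.6, 64.7, 64.6 and 51.7 CPM and 158, 104.8, 141 and 159.8 CPM, once more with 9F the lowest Sham-WM mouse (log2 fold change 1.19, SE 0.14, adjusted p = 0.000314). Hsph1, a nucleotide exchange factor of HSP70, was at 39.3, 33.8, 53.2 and 26.9 CPM and 87.3, 55.8, 97.5 and 106.6 CPM (log2 fold change 1.18, SE 0.25, adjusted p = 0.0153). Hsph1 groups nearly met, at mice 6F and 9F. The small heat shock protein gene Hspb1 rose from 13.9, 17.6, 14.6 and 11.7 CPM to 34.0, 21.1, 26.4 and 27.5 CPM (log2 fold change 0.91, SE 0.18, adjusted p = 0.00923). Hspa1a, the stress-inducible HSP70, was at or under 2.04 CPM in all 8 mice and did not pass the test (log2 fold change 1.52, adjusted p = 0.351; log2 fold change 0.87 without mouse 15F). Hspa1a has a near-identical paralog, so its reads are hard to place. The call of Hsph1 was lost without mouse 10F or 16F (adjusted p up to 0.055).

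The heat shock element GAANNTTC, chosen after seeing the data, was in 7.04% of all promoters, 6.91% of those of genes called higher and 7.14% of those called lower. Among heat shock genes it was in 3 of 6 promoters of called genes and 6 of 8 of genes not called. All 17 tested genes of the list had a log2 fold change above 0, so the call does not separate genes that rose from genes that did not. Only the form given above was searched in this window, from which nothing follows about the factor. No such promoter is shown.

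Chaperones of the endoplasmic reticulum (ER) rose in part. Of 19 tested genes of ER folding 4 rose and 0 fell (21.1% called, against 6.99% of all genes, median 0.07). Hspa5, the main ER chaperone (BiP), was at 521, 681, 449.7 and 406 CPM in Sham-Ad lib and 982, 752, 900.2 and 1096 CPM in Sham-WM mice (log2 fold change 0.86, SE 0.19, adjusted p = 0.0163). Hyou1, its exchange factor, was at 88.5, 104.7, 78.5 and 63.5 CPM and 184, 146, 197 and 231 CPM (log2 fold change 1.18, SE 0.22, adjusted p = 0.00743). Manf, a secreted ER stress protein, rose from 39.1, 55.4, 31.5 and 37.3 CPM to 93.0, 64.5, 75.6 and 102 CPM (log2 fold change 1.04, SE 0.19, adjusted p = 0.00654). In these 3 genes mouse 4F was the highest Sham-Ad lib mouse, 9F the lowest Sham-WM mouse and 16F the highest. Of 12 genes of the integrated stress response, 1 rose and 0 fell (8.33% called, against 6.99% of all genes, median 0.24), which is no result about the list. The gene that rose was its transcription factor Atf4, from 56.8, 55.7, 48.5 and 73.7 CPM to 94.3, 119, 106.7 and 91.5 CPM (log2 fold change 0.81, SE 0.16, adjusted p = 0.00829). The call of Hspa5 was lost without mouse 6F, 10F or 16F (adjusted p up to 0.0593) and in a test against a fold of 1.2.

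**Figure D3:**
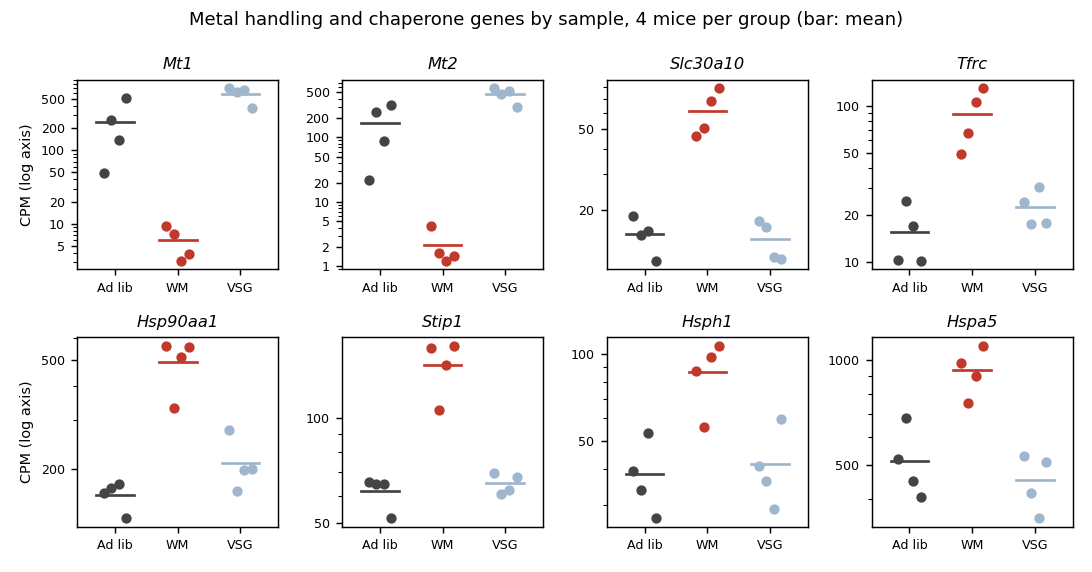
CPM on a log axis of 4 metal handling genes (Mt1, Mt2, Slc30a10, Tfrc) and 4 chaperone genes (Hsp90aa1, Stip1, Hsph1, Hspa5) in each sample, 4 mice per group, with a bar at each group's mean. The Sham-WM mice are lowest for Mt1 and Mt2 and above all Sham-Ad lib mice for the other 6 genes.

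The plot of metal and chaperone genes by sample also shows the width of the Sham-Ad lib group for Mt1 and Mt2, in which mouse 3F lies nearest to the Sham-WM mice.

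Genes of glycogen metabolism changed on both sides. Of 11 tested, 3 rose and 2 fell (45.5% called, against 6.99% of all genes, median -0.08). Ppp1r3b, the liver subunit that brings protein phosphatase 1 to glycogen and so favours its synthesis, was at 159, 180.0, 239.6 and 167 CPM in Sham-Ad lib and 791, 739, 595 and 666 CPM in Sham-WM mice. Every Sham-WM mouse lay far above 6F, the highest Sham-Ad lib mouse (log2 fold change 1.90, SE 0.17, adjusted p = 4.92e-05). Ppp1r3c, another such subunit, was at 30.0, 33.7, 34.2 and 29.7 CPM and 66.7, 119.8, 68.4 and 132 CPM, where 9F and 16F were the high Sham-WM mice (log2 fold change 1.60, SE 0.30, adjusted p = 0.00794). Another subunit, Ppp1r3g, fell from 4.799, 3.22, 1.84 and 0.753 CPM to 0.357, 0.614, 0.102 and 0.113 CPM. The level of Ppp1r3g was low in both groups, in mice 15F and 16F under the 3 counts taken as the floor (log2 fold change -3.12, SE 0.73, adjusted p = 0.0212). Pygl, the liver phosphorylase that breaks glycogen down, rose from 459, 376, 529 and 493 CPM to 690.3, 684, 714 and 619 CPM (log2 fold change 0.54, SE 0.14, adjusted p = 0.0291). The calls of Ppp1r3b and Ppp1r3c held in all alternatives that kept the grouping by animal number. That of Ppp1r3g was lost without 2F, 3F, 15F or 16F (adjusted p up to 0.0754), with a log2 fold change of -3.74 without 9F, and that of Pygl without any of 7 of the 8 mice, 6F being the exception (adjusted p up to 0.0895), without a filter on low counts (0.065) and in a test against a fold of 1.2 (0.146).

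Glucose output genes did not move as 1 group: of 13 tested, 2 rose and 0 fell (15.4% called, against 6.99% of all genes, median -0.10). G6pc, the catalytic subunit of glucose-6-phosphatase, which releases free glucose, was at 149.8, 87.0, 144 and 126 CPM in Sham-Ad lib and 385, 227, 642 and 957 CPM in Sham-WM mice. Sham-WM mice were all higher but spread widely, 9F being lowest and 16F highest (log2 fold change 2.13, SE 0.47, adjusted p = 0.017). Pck1, the enzyme that commits carbon to gluconeogenesis, was at 2640.2, 3126, 2069.7 and 799 CPM and 1594, 383, 1712 and 2225 CPM and did not pass the test, with the groups overlapping over most of their range (log2 fold change -0.55, adjusted p = 0.603). The call of G6pc was lost without mouse 10F or 16F (adjusted p up to 0.0599).

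Of 24 genes of glucose use and glycolysis, 3 rose and 2 fell (20.8% called, against 6.99% of all genes, median 0.12). The fructose transporter gene Slc2a5 fell from 17.9, 11.4, 21.3 and 18.6 CPM to 6.11, 4.92, 5.15 and 4.78 CPM (log2 fold change -1.72, SE 0.20, adjusted p = 0.000336), and Tkfc, the triokinase of fructose breakdown, rose from 260.4, 253, 378 and 429 CPM to 691, 616, 1200.1 and 732 CPM (log2 fold change 1.29, SE 0.23, adjusted p = 0.00572). Tkfc overlaps Ddb1 and Cyb561a3 on the other strand. Among kinases that switch off pyruvate dehydrogenase, Pdk2 fell from 160.1, 146, 209 and 179 CPM to 95.7, 127, 87.5 and 82.4 CPM (log2 fold change -0.82, SE 0.17, adjusted p = 0.0112) and Pdk4 rose from 3.40, 4.72, 2.92 and 3.33 CPM to 6.88, 12.03, 12.96 and 13.5 CPM (log2 fold change 1.65, SE 0.24, adjusted p = 0.00181). Per kilobase of exon, Pdk2 was the more abundant of the pair in both groups, at 54.8 and 31.0 CPM per kb against 1.02 and 3.23 for Pdk4.

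Every fat synthesis gene that was called was higher, and 11 were not called. Of 18 tested genes from citrate to long-chain fatty acids, 7 rose and 0 fell (38.9% called, against 6.99% of all genes). Of the 18, 17 had a log2 fold change above 0, and the median was 0.82. Over the alternatives with the same grouping, between 5 and 11 rose. Acly, which makes cytosolic acetyl-CoA from citrate, was at 308, 339, 287 and 254 CPM in Sham-Ad lib and 1118, 839, 1392 and 934 CPM in Sham-WM mice (log2 fold change 1.85, SE 0.19, adjusted p = 0.000108). Fasn, the fatty acid synthase, was at 481, 575, 421 and 482 CPM and 1937, 1147, 1893 and 1048 CPM, with 2F and 15F high and 9F and 16F lower among Sham-WM mice but above every Sham-Ad lib mouse (log2 fold change 1.62, SE 0.26, adjusted p = 0.00339). Elovl3, an elongase of very long chains that is also more abundant in male liver, rose from 62.0, 53.0, 40.8 and 35.6 CPM to 197, 224, 136 and 321 CPM (log2 fold change 2.197, SE 0.24, adjusted p = 0.0002). Elovl3 overlaps Pitx3, Agpat2 overlaps Egfl7 and Angptl8 lies within Dock6, so their counts are less certain. The order of the Sham-WM mice differed from gene to gene, with 15F highest for Acly and 16F highest for Elovl3. Insig2, an anchor of the SREBP pathway in the ER, rose from 89.9, 108.6, 99.7 and 43.9 CPM to 203, 249, 175 and 271 CPM (log2 fold change 1.39, SE 0.26, adjusted p = 0.00791). Insig2 belongs to another list, of lipogenic transcription factors. Of its 10 tested genes 1 rose and 1 fell (20% called, against 6.99% of all genes, median 0.19). Also called higher were Agpat2, an acyltransferase of triglyceride synthesis (log2 fold change 0.83, SE 0.12, adjusted p = 0.00181), and Angptl8, a secreted inhibitor of lipoprotein lipase (log2 fold change 1.39, SE 0.24, adjusted p = 0.00504). Agpat2 was the 1 gene called of 12 in its list, of which 9 had a log2 fold change below 0 (median -0.15). Angptl8 is in a list of 21 secreted proteins of liver, of which 3 rose and 0 fell (14.3% called, median 0.01). Of 20 genes of cholesterol synthesis 0 were called by edgeR in either direction (median -0.14), which with 6.99% of all genes called is no result about the list; it was not tested against fatty acid synthesis.

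Genes of the lipid droplet were called on both sides, 3 higher and 6 lower of 18 tested (50% called, against 6.99% of all genes, median -0.28). Pnpla3, a droplet protein of the patatin family, was at 0.502, 0.805, 0.270 and 0.0627 CPM in Sham-Ad lib and 9.94, 4.76, 14.8 and 5.68 CPM in Sham-WM mice. It was near the floor in Sham-Ad lib mice and clearly present in each Sham-WM mouse (log2 fold change 4.37, SE 0.51, adjusted p = 0.000348). Pnpla2, the adipose triglyceride lipase that opens triglyceride breakdown, was at 91.1, 93.5, 92.7 and 94.6 CPM and 39.6, 56.9, 40.8 and 40.4 CPM. Sham-Ad lib mice were almost equal, and all Sham-WM mice were lower, 9F the least so (log2 fold change -1.07, SE 0.13, adjusted p = 0.000509). Lipe, the hormone-sensitive lipase, fell from 25.4, 16.7, 25.9 and 27.0 CPM to 8.20, 16.1, 10.3 and 7.94 CPM (log2 fold change -1.16, SE 0.24, adjusted p = 0.012), and its groups nearly met at mice 4F and 9F. The 2 patatin relatives thus went opposite ways. Pnpla2 was chosen after its values were seen.

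Coat proteins of the droplet differed among themselves. Cidec, which fuses droplets, was at 9.21, 31.6, 15.5 and 3.33 CPM in Sham-Ad lib and 4.23, 2.202, 1.89 and 3.04 CPM in Sham-WM mice (log2 fold change -2.39, SE 0.55, adjusted p = 0.0201). Plin4 was at 14.8, 37.8, 23.0 and 9.72 CPM and 5.96, 2.36, 4.998 and 10.9 CPM (log2 fold change -1.83, SE 0.42, adjusted p = 0.021). In both, mouse 4F was highest and mouse 10F lay inside the Sham-WM range, so the groups overlapped although the genes were called. Plin2, the most abundant gene of the list, was at 550.4, 547, 601 and 359 CPM and 469.7, 443, 346 and 448 CPM and did not pass the test (log2 fold change -0.27, adjusted p = 0.438). Plin4 overlaps Hdgfl2. The call of Cidec was lost without mouse 4F (log2 fold change -1.72), 9F, 15F or 16F (adjusted p up to 0.0723) and that of Plin4 without 2F, 4F, 6F or 15F (adjusted p up to 0.0726).

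Of 34 tested genes of fatty acid oxidation 1 rose and 1 fell (5.88% called, against 6.99% of all genes, median -0.04), and between 0 and 6 fell over the alternatives. Pdk4, given above, is the gene that rose, and Cpt1a, the gate for fatty acids into mitochondria, is the gene that fell. Cpt1a was at 877, 731, 866 and 739.9 CPM in Sham-Ad lib and 492, 603, 393 and 419 CPM in Sham-WM mice, with no overlap (log2 fold change -0.75, SE 0.17, adjusted p = 0.0205). Apoa4, an apolipoprotein of triglyceride-rich particles, fell from 708, 750.3, 652 and 467 CPM to 359, 266, 268 and 272 CPM (log2 fold change -1.15, SE 0.24, adjusted p = 0.0133). Its list of 20 apolipoprotein and assembly genes had 1 higher and 1 lower (10% called, against 6.99% of all genes). Cfd (adipsin), a gene known from adipocytes, fell from 10.2, 8.69, 6.87 and 5.33 CPM to 0.764, 0.358, 0.153 and 0.113 CPM (log2 fold change -4.44, SE 0.58, adjusted p = 0.000877), with 15F and 16F at the floor of 3 counts or fewer. Without 2F the log2 fold change of Cfd was -5.16. Cfd and Cidec are members of the adipocyte list, of which 4 of 8 genes were tested and 2 were called lower. That list summed to 4189, 2724, 4206 and 3275 CPM in Sham-Ad lib and 5334, 5889, 4011 and 4925 CPM in Sham-WM mice, nearly all of it from Car3, which liver also expresses, and its defining genes Adipoq, Lep and Plin1 were at or near 0 in all 8 samples. In bulk tissue, fewer cells of a type and less RNA per cell cannot be told apart. The call of Cpt1a was lost without 3F, 6F, 15F or 16F (adjusted p up to 0.0761) or in a test against a fold of 1.2 (0.0739), and that of Apoa4 without 16F (adjusted p = 0.0502).

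**Figure D4:**
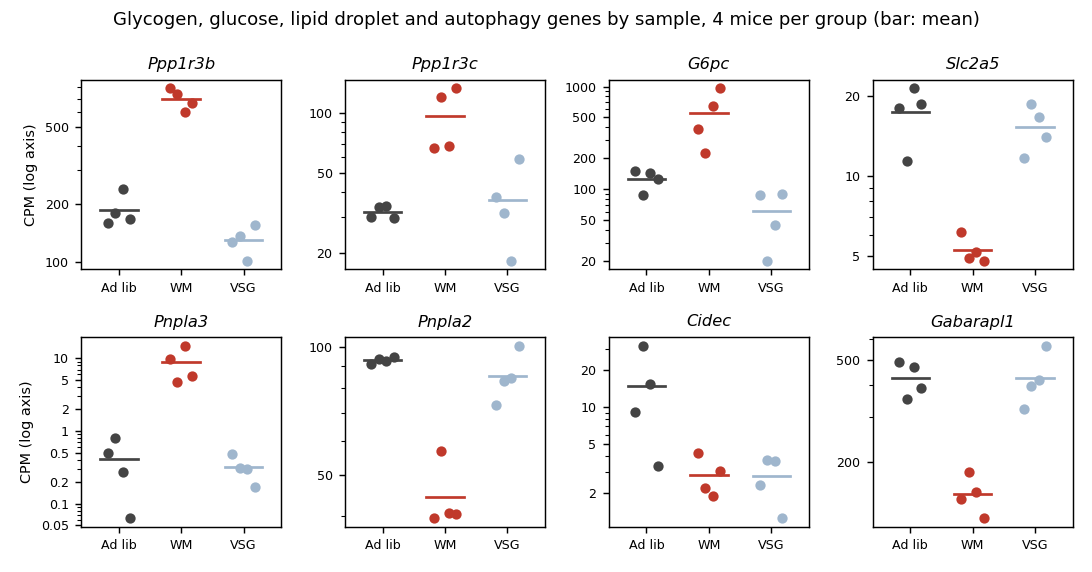
CPM on a log axis of 8 genes of glycogen (Ppp1r3b, Ppp1r3c), glucose and fructose (G6pc, Slc2a5), lipid droplets (Pnpla3, Pnpla2, Cidec) and autophagy (Gabarapl1) in each sample, 4 mice per group, with a bar at each group's mean. The sham groups lie apart in 7 of the 8 genes and overlap in Cidec.

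In the plot of glycogen, glucose, droplet and autophagy genes, VSG mice lie below or among the Sham-Ad lib mice for Ppp1r3b and G6pc and far below the Sham-WM mice. Sham-WM differed from VSG in Ppp1r3b (log2 fold change 2.42, adjusted p = 6.39e-06) and G6pc (3.18, adjusted p = 0.00126). Acly (3.03, adjusted p = 3.7e-06) and Pnpla3 (4.78, adjusted p = 0.000169) differed as well. For Cidec the log2 fold change of Sham-WM over VSG was 0.05 (SE 0.57, adjusted p = 0.956), for Cpt1a -0.10 (SE 0.17, adjusted p = 0.699) and for Apoa4 -0.09 (SE 0.24, adjusted p = 0.801). These 3 did not pass the test against VSG, which does not show that the groups are alike.

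Autophagy genes fell where they were called: of 23 tested genes of autophagy and the lysosome, 0 rose and 5 fell (21.7%, against 3.45% lower over all genes). Of the 23, 20 had a log2 fold change below 0 (median -0.21). Gabarapl1, a protein of the autophagosome membrane, was at 490.0, 352, 466 and 389 CPM in Sham-Ad lib and 144, 184, 153 and 121 CPM in Sham-WM mice (log2 fold change -1.50, SE 0.18, adjusted p = 0.000509). Map1lc3b, its relative (LC3B), was at 135, 153, 142 and 162 CPM and 83.4, 80.1, 74.5 and 70.5 CPM (log2 fold change -0.94, SE 0.10, adjusted p = 0.000125). Within each group these values were close together, and the groups were far apart. Ulk1, the kinase that starts autophagy, fell from 98.0, 138, 107.6 and 111.6 CPM to 74.9, 70.3, 62.9 and 54.4 CPM (log2 fold change -0.79, SE 0.17, adjusted p = 0.0155). Map1lc3b overlaps Zcchc14. The call of Ulk1 was lost without 15F or 16F (adjusted p up to 0.0597) and in a test against a fold of 1.2.

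Of 37 tested genes of amino acid breakdown and uptake, 0 rose and 4 fell (median -0.07), against 3.45% lower over all genes, and 3 of the 4 are transporters. Over the alternatives with the same grouping, between 2 and 7 were lower and up to 1 higher. Slc38a3, which carries glutamine across the hepatocyte membrane, was at 2112, 2571, 2459 and 2565 CPM in Sham-Ad lib and 1481, 1513, 1151 and 1111 CPM in Sham-WM mice (log2 fold change -0.88, SE 0.17, adjusted p = 0.00829). Slc38a4, a carrier of neutral and cationic amino acids, was at 1835, 2003, 1745 and 1649.9 CPM and 987, 1064, 1064 and 1075 CPM (log2 fold change -0.79, SE 0.16, adjusted p = 0.0113). Both are abundant genes, and in both all Sham-WM mice were below all Sham-Ad lib mice. Of 8 urea cycle genes 1 rose and 0 fell (12.5% called, against 6.99% of all genes, median 0.28).

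Of genes of vitamin A metabolism, 3 were called higher, and they rose unevenly. Of 17 tested genes of ascorbate and retinoid metabolism, 3 rose and 1 fell (23.5% called, against 6.99% of all genes, median 0.10). Cyp26a1, which breaks down retinoic acid and is known to be induced by it, was at 1.34, 1.29, 1.51 and 0.753 CPM in Sham-Ad lib and 3.77, 6.66, 77.2 and 44.1 CPM in Sham-WM mice (log2 fold change 4.73, SE 0.93, adjusted p = 0.00928). Cyp26b1, the second enzyme of this kind, was at 1.84, 0.751, 3.25 and 0.251 CPM and 5.55, 2.97, 32.1 and 23.9 CPM (log2 fold change 3.38, SE 0.86, adjusted p = 0.0314). In both genes mice 15F and 16F were far above mice 2F and 9F, and for Cyp26b1 mouse 9F lay under Sham-Ad lib mouse 6F. Lrat, which makes the storage form of retinol in stellate cells, was at 14.0, 16.3, 19.5 and 15.3 CPM and 22.5, 20.3, 43.7 and 28.1 CPM, again with 15F highest (log2 fold change 0.82, SE 0.22, adjusted p = 0.0384). The other 2 stellate cell markers, Reln and Dcn, were not called. The vitamin C transporter gene Slc23a2 fell from 45.5, 52.2, 42.9 and 45.4 CPM to 17.5, 24.5, 18.4 and 19.3 CPM (log2 fold change -1.22, SE 0.14, adjusted p = 0.000336). The call of Cyp26a1 held without either 15F or 16F, while that of Cyp26b1 was lost without 3F, 4F, 10F, 15F or 16F (adjusted p up to 0.107) or against a fold of 1.2 (0.0575) and that of Lrat without 3F, 4F, 6F, 10F, 15F, 16F or VSG mouse 8F (adjusted p up to 0.106) or against a fold of 1.2 (0.117). Without 15F the log2 fold change of Cyp26a1 was 3.87, and without 6F that of Cyp26b1 was 4.06.

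Among the genes with the largest rises and no overlap, outside the groups above, were several best known from other tissues. Chrna4, a nicotinic acetylcholine receptor subunit, was at 4.69, 2.84, 2.16 and 2.76 CPM in Sham-Ad lib and 23.4, 25.4, 23.0 and 23.2 CPM in Sham-WM mice, the latter nearly equal (log2 fold change 2.93, SE 0.26, adjusted p = 5.38e-05). Tubb2a, a beta-tubulin, was at 12.8, 28.1, 13.8 and 6.46 CPM and 95.9, 108.7, 74.4 and 115.4 CPM (log2 fold change 2.68, SE 0.37, adjusted p = 0.00123). Atp2b2, a calcium pump of the plasma membrane, was at 1.00, 0.805, 0.974 and 0.376 CPM and 3.16, 3.84, 14.4 and 6.70 CPM, with 15F highest (log2 fold change 3.13, SE 0.49, adjusted p = 0.00276, and a log2 fold change of 2.51 without 15F). Each of these was low in Sham-Ad lib mice and higher in all 4 Sham-WM mice. Slc25a25, a mitochondrial carrier of ATP-Mg and phosphate, rose from 30.0, 37.8, 53.7 and 28.7 CPM to 119, 78.6, 303 and 277 CPM, where 15F and 16F again stood above 2F and 9F (log2 fold change 2.37, SE 0.46, adjusted p = 0.00928). Pcp4l1 (log2 fold change 2.43) and Nat8f5 (2.37) complete the 10 largest rises that passed the limits on level and overlap, together with Cyp26a1, Arntl, Cry1 and Tfrc. Nat8f5 overlaps its relative Nat8f6. Desi2, at 13.1, 12.4, 13.5 and 11.7 CPM and 30.1, 32.7, 36.6 and 37.6 CPM, and Leo1, a subunit of the PAF1 transcription complex, at 8.93, 11.2, 7.84 and 8.09 CPM and 24.4, 25.3, 24.3 and 28.3 CPM, had smaller folds but some of the lowest adjusted p-values (Desi2 4.42e-05, Leo1 5.38e-05), since their mice were alike within each group.

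Rgs16, Gm14097 and Gpcpd1 were among the 10 largest falls that passed the same limits. Rgs16, an inhibitor of G protein signals, was at 404, 199, 387 and 122 CPM in Sham-Ad lib and 49.1, 38.7, 16.9 and 7.15 CPM in Sham-WM mice, with no overlap but a wide spread in both (log2 fold change -3.31, SE 0.75, adjusted p = 0.0191). Gpcpd1, a glycerophosphocholine phosphodiesterase, was at 186, 140.5, 196 and 317 CPM and 33.7, 50.6, 26.8 and 24.1 CPM (log2 fold change -2.63, SE 0.32, adjusted p = 0.000509). The noncoding gene Gm14097 fell from 13.2, 8.59, 10.8 and 12.1 CPM to 1.32, 1.59, 0.561 and 1.41 CPM (log2 fold change -3.19, SE 0.28, adjusted p = 4.64e-05); it overlaps Shld1 on the other strand. Slc5a6, the transporter of biotin and pantothenate, fell from 24.1, 20.1, 30.5 and 20.6 CPM to 5.61, 6.55, 5.66 and 4.39 CPM (log2 fold change -2.10, SE 0.18, adjusted p = 4.42e-05). Klhdc7a, of unclear function, fell from 77.8, 66.5, 67.0 and 78.7 CPM to 21.7, 19.4, 26.0 and 22.01 CPM (log2 fold change -1.70, SE 0.15, adjusted p = 4.52e-05). Slc5a6 overlaps Atraid. Slc5a6 and Klhdc7a were among the 5 falls with the smallest p. The call of Rgs16 was lost without 15F or 16F (adjusted p up to 0.0691).

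Acute phase genes, which the liver makes in response to inflammatory signals, fell where they were called, 0 higher and 6 lower of 32 tested. That is 18.75% called, against 6.99% of all genes. A log2 fold change below 0 was seen in 30 of the 32 (median -0.82). Over the alternatives with the same grouping, between 1 and 15 were lower. Saa1 was at 141, 2127, 798 and 6026 CPM in Sham-Ad lib and 252, 53.6, 33.7 and 24.2 CPM in Sham-WM mice (log2 fold change -4.64, SE 1.26, adjusted p = 0.0427). Saa2 was at 32.9, 1392, 260.0 and 5851 CPM and 73.2, 19.3, 13.4 and 10.7 CPM (log2 fold change -6.01, SE 1.56, adjusted p = 0.0352). High values came from mice 4F and 10F, and the groups overlapped in both genes because Sham-WM mouse 2F lay above Sham-Ad lib mouse 3F. Serpina3n, an acute phase protease inhibitor, was at 469, 1025, 597 and 1255 CPM and 433, 447, 357 and 419 CPM, where 4F and 10F were again the high mice and the groups just failed to meet (log2 fold change -1.01, SE 0.27, adjusted p = 0.0373). The whole list summed to 40375, 77003, 44399 and 90739 CPM in Sham-Ad lib and 40538, 41558, 38663 and 38137 CPM in Sham-WM mice, so mice 3F and 6F were near the Sham-WM mice. Saa1 and Saa2 are close paralogs whose reads are hard to place apart. The call of Saa1 was lost without 4F, 6F, 9F, 10F, 15F, 16F or VSG mice 1F or 8F (adjusted p up to 0.128), that of Saa2 without 4F, 9F, 10F, 15F or 16F (up to 0.112) and that of Serpina3n without 2F, 4F, 9F, 10F, 15F or 16F (up to 0.118). In a test against a fold of 1.2 none of the 3 was called (adjusted p = 0.0763 for Saa1, 0.0626 for Saa2 and 0.0956 for Serpina3n). The log2 fold change of Saa1 was -3.50 without 10F and -5.93 without 2F, and that of Saa2 -4.27 and -7.02. With 2 RUVs factors the log2 fold changes were -3.33 for Saa1 and -3.68 for Saa2.

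Of 16 tested immediate early genes, which respond within minutes to many stimuli, 1 rose and 2 fell (18.75% called, against 6.99% of all genes, median -0.27). Egr1 was at 12.4, 147, 16.2 and 27.5 CPM in Sham-Ad lib and 2.65, 7.63, 2.91 and 2.53 CPM in Sham-WM mice (log2 fold change -3.69, SE 0.78, adjusted p = 0.0134). Junb was at 18.8, 88.0, 18.8 and 26.4 CPM and 5.71, 9.22, 10.7 and 4.62 CPM (log2 fold change -2.33, SE 0.49, adjusted p = 0.0134). Mouse 4F was by far the highest in both, and the remaining Sham-Ad lib mice were also above all Sham-WM mice. Dusp1, a phosphatase of MAP kinases, rose from 7.37, 12.2, 7.57 and 5.58 CPM to 13.5, 17.5, 37.2 and 28.6 CPM, with 15F and 16F highest (log2 fold change 1.56, SE 0.36, adjusted p = 0.0211). Junb overlaps Prdx2 and Dusp1 overlaps Ergic1. The call of Egr1 was lost without 15F or 16F (adjusted p up to 0.0541), that of Junb without 16F (adjusted p = 0.0525) and that of Dusp1 without 3F, 6F, 10F, 15F or 16F (adjusted p up to 0.0754). Without 4F the log2 fold change of Egr1 was -2.24 and that of Junb -1.49, both still called. With 2 RUVs factors that of Egr1 was -3.10.

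Mouse 4F also stood apart in genes of immune cells. The 15 Kupffer cell genes, the most abundant being Cd5l, summed to 271.0, 742.9, 349.1 and 278.8 CPM in Sham-Ad lib and 367.0, 327.7, 380.1 and 238.4 CPM in Sham-WM mice, and 0 of them were called by edgeR (median log2 fold change -0.41, 13 of 15 below 0). The 11 genes of MHC class II summed to 112.2, 334.8, 102.0 and 115.1 CPM and to 175.3, 77.9, 116.9 and 86.8 CPM, with 0 of 10 tested genes called (median -0.45, 8 below 0). Of 10 tested neutrophil genes 0 were called and all 10 were below 0 (median -1.15). The 12 genes of that list, the most abundant being Csf3r, summed to 2.57, 23.2, 1.68 and 3.51 CPM and to 4.38, 3.22, 4.23 and 3.32 CPM, and Ly6g had 0 counts in all 8 mice. Apart from 4F, the Sham-Ad lib sums lay within the Sham-WM range in the lists of Kupffer cells and MHC class II and overlapped it from below in the neutrophil list. Of 29 genes of the interferon response 0 rose and 3 fell (10.3% called, against 6.99% of all genes, median -0.23). Over the alternatives with the same grouping, between 1 and 7 were lower. Among the 3 was Tap1, the peptide transporter of antigen presentation, which fell from 31.0, 36.1, 28.0 and 34.7 CPM to 21.8, 19.0, 21.2 and 16.7 CPM without overlap (log2 fold change -0.72, SE 0.12, adjusted p = 0.00476). Tap1 overlaps Psmb9. The part of these cell markers in the changes of the acute phase, immediate early and interferon genes was not tested.

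Many lists held no or few called genes. Of the 61 lists, 18 had 0 genes called and 16 had 1. Among those with 0 were 25 drug-metabolizing P450 genes (median log2 fold change 0.05), 80 cytoplasmic ribosomal proteins (median 0.05), 12 hepatocyte genes (median -0.06) and 12 periportal genes (median -0.10). Of 76 subunits of oxidative phosphorylation 0 rose and 1 fell (median 0.07), and of 26 bile acid genes 2 rose and 0 fell (median -0.17). Also with 0 called were 15 genes of recruited macrophages (median -0.44, 12 below 0), 18 chemokines (median -0.35, 14 below 0), 6 genes of T and NK cells (median -0.17, 3 below 0) and 12 of B and plasma cells (median -0.22, 9 below 0). The same held for 17 genes of sinusoidal endothelium (median 0.28, 16 above 0) and 8 of cholangiocytes (median -0.13, 5 below 0). All 7 genes of red blood cells were below 0 (median -0.88) and 0 were called. Their sum, Hbb-bs being the most abundant, was 280, 326, 589 and 298 CPM in Sham-Ad lib and 188, 313, 151 and 212 CPM in Sham-WM mice, so the groups overlapped. With 6.99% of all genes called, 0 called genes in a short list is near what all genes show, and it does not show that cell numbers were equal.

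**Figure D5:**
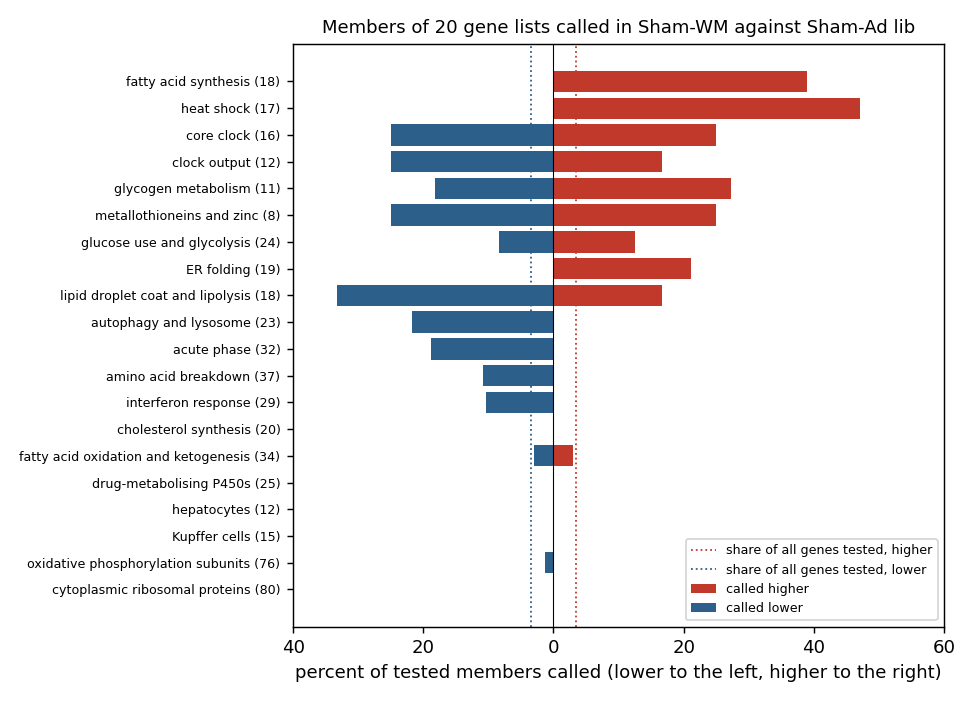
Percent of the tested members of 20 of the 61 gene lists called higher (red, to the right) and lower (blue, to the left) in Sham-WM against Sham-Ad lib, with the number of tested members in brackets. Dotted lines mark the share of all tested genes called higher (3.53%) and lower (3.45%); the 20 lists were picked after their counts were seen.

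The plot of lists by share called sets heat shock, fatty acid synthesis and the clock lists against ribosomal proteins, P450s and hepatocyte genes. It is a description of lists chosen with results in view and no test was run over any list. A list called both ways does not show in its median, which was 0.05 for the core clock although 8 of its 16 genes were called.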

How the data were processed

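The authors deposited counts of reads on genes: poly(A) RNA reads aligned to mm10 with TopHat2 2.1.1 and counted with featureCounts, neither normalized nor batch corrected. The annotation release and the strand setting are not stated. Symbols follow GENCODE M21, and 849 of 46078 genes had no match.

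With edgeR 4.0.16 (R 4.3.3, limma 3.58.1), genes were kept by filterByExpr (minimum count 10, minimum total 15), and all 12 samples were fitted by group with TMM factors. The quasi-likelihood test gave Sham-WM minus Sham-Ad lib and, for genes named, Sham-WM minus VSG. Adjustment of p followed Benjamini and Hochberg. SE is the log2 fold change over the root of F. CPM of single genes are TMM-normalized; sums of lists use all counts. The floor is 3 counts. DESeq2 1.42.0, other factors and filters, RUV factors and leaving out each sample were run as alternatives. Motifs and tables were made with Python 3.11.15.

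The members and the 61 lists were chosen with earlier results of these data known. Genes are named by a rule: anchor genes of the lists; the 10 largest changes each way among called genes whose groups do not overlap and whose mean log2 CPM reaches 1; the 5 smallest p each way under the same conditions; and up to 4 called genes per list. This rule names 223 genes. The text shows fewer anchor and list genes, narrowed after their values and their behaviour under the alternatives were seen. The number that kept the call is therefore given over all 112 called genes among the 223. Clock, Nr1d2 and Pnpla2 lie outside the rule. Some genes are withheld and not reported here. The promoters shown and the motifs other than E-box, D-box and cyclic AMP response element were chosen after seeing the data.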

Additional observations from a re-analysis of the deposited data

Results flagged for a closer look

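In each group of 4 mice, a value far from the other 3 was searched for in the CPM of the genes named in the text, and in the total counts, TMM factors and Alb shares of the samples, by Dixon's ratio. A sample far from the others was found in 14 of 168 groups tested (8.33%). The threshold gives 1 in 20 for independent groups of normally distributed values. CPM were not put on a log scale, and the genes share mice, so 8.33% cannot be read as an excess. The ratios were: Nr1d2 in Sham-Ad lib lowest 4F (0.862), Nr1d2 in Sham-WM lowest 16F (0.868), Mt2 in Sham-WM highest 2F (0.864), Stip1 in Sham-Ad lib lowest 10F (0.933), Pnpla2 in Sham-WM highest 9F (0.933), Lipe in Sham-Ad lib lowest 4F (0.84), Apoa4 in Sham-WM highest 2F (0.943), Slc38a4 in Sham-WM lowest 2F (0.871), Saa1 in Sham-WM highest 2F (0.871), Saa2 in Sham-WM highest 2F (0.862), Egr1 in Sham-Ad lib highest 4F (0.888), Egr1 in Sham-WM highest 9F (0.926), Junb in Sham-Ad lib highest 4F (0.89) and Chrna4 in Sham-WM highest 9F (0.838). Mouse 4F is the outlying Sham-Ad lib mouse in 4 of them and 2F the outlying Sham-WM mouse in 5. Whether these are technical or biological was not tested.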

How the results depend on the processing

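With edgeR, 912 genes were called, 461 higher and 451 lower. DESeq2 called 1433 (720 higher, 713 lower), but it gave a p-value to 23085 genes in place of 13054 and filtered again before adjustment. The tool and the filter thus changed together. A fit of only the 2 sham groups called 1399 (717 and 682), a fit with 2 RUVs factors 1723 (871 and 852) and one with 2 RUVr factors 2193 (1145 and 1048). A test against a fold of 1.2 called 330 (161 and 169). Without a filter on low counts 789 were called (366 and 423), with at least 10 counts in every sample 922 (469 and 453), with RLE factors 898 (442 and 456) and with upper quartile factors 917 (460 and 457). Leaving out 1 sample at a time gave between 424 and 1311 called genes, between 220 and 623 higher and between 204 and 688 lower. The count moved by over 1.5 times without 16F (424: 220 higher, 204 lower), 15F (445: 231 and 214), 10F (506: 229 and 277), 3F (543: 262 and 281) or 6F (554: 277 and 277), with fewer samples in each such fit; without 2F it was 622 (344 and 278) and without 4F 664 (340 and 324). Without 9F 858 were called (472 and 386), and without VSG mouse 1F, 8F, 11F or 18F 887 (450 and 437), 879 (420 and 459), 1311 (623 and 688) and 899 (458 and 441). Grouping by the other field of the labels called 0 genes, 0 higher and 0 lower, and left 389 genes without overlap in place of 2294. That field puts some Sham-WM and Sham-Ad lib mice into each other's group, as listed below. The gap between the groups on the first component was 16.3 and lay between 14.8 and 29.3 over its alternatives.

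Of the called genes among the 223 that the rule names, 69 kept the call in every alternative, other than the grouping by the other field, in which they were tested; 7 of the 69 were filtered out in at least 1, and 62 were tested in all. In 43 the call was lost in at least 1, and 0 reversed. Per1, not called, had log2 fold changes of 0.03 without 6F, 0.06 without 15F and 0.17 without 9F, against -0.04 in all mice; the cause was not tested.

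Over the alternatives that keep the grouping by animal number, the members called higher and lower ranged as follows, a member that an alternative filtered out being counted as not called: core clock 3 to 5 and 3 to 4, clock output 1 to 2 and 2 to 5, metallothioneins and zinc 2 to 2 and 2 to 3, iron handling 1 to 4 and 0 to 2, ER folding 3 to 6 and 0 to 1, integrated stress response 1 to 2 and 0 to 1, glycogen metabolism 2 to 3 and 0 to 3, glucose output 1 to 2 and 0 to 2, glucose use and glycolysis 3 to 7 and 2 to 4, triglyceride synthesis 1 to 2 and 0 to 0, lipid droplet coat and lipolysis 1 to 3 and 3 to 6, apolipoproteins and VLDL assembly 1 to 2 and 0 to 1, adipocytes 0 to 0 and 1 to 2, autophagy and lysosome 0 to 0 and 3 to 8, urea cycle 0 to 2 and 0 to 0, ascorbate and retinoid 1 to 5 and 1 to 2, immediate early 0 to 1 and 0 to 2, interferon response 0 to 1 and 1 to 7, Kupffer cells 0 to 0 and 0 to 2, MHC class II 0 to 0 and 0 to 0, cholesterol synthesis 0 to 1 and 0 to 0, hepatocytes 0 to 0 and 0 to 0, drug-metabolising P450s 0 to 5 and 0 to 0, cytoplasmic ribosomal proteins 0 to 5 and 0 to 0, oxidative phosphorylation subunits 0 to 2 and 1 to 1, bile acid synthesis and transport 1 to 4 and 0 to 1, periportal genes 0 to 0 and 0 to 0.

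Under the grouping by the other field, 75 of the genes named in the text changed sign and 0 passed the threshold. That field gives 10F, 11F, 15F and 16F as Sham-Ad lib mice and 4F, 6F, 8F and 9F as Sham-WM mice. By animal number, 15F and 16F are Sham-WM mice, 4F and 6F are Sham-Ad lib mice, and 8F and 11F are VSG mice. Its groups thus exchange part of the mice compared here. The log2 fold changes that were negative there were Arntl -0.83, Clock -0.26, Cry1 -1.09, Per2 -0.56, Nfil3 -0.16, Slc39a10 -0.41, Slc30a10 -0.80, Tfrc -1.12, Hsp90aa1 -0.72, Hsph1 -0.54, Hspb1 -0.33, Stip1 -0.49, Hspa1a -2.17, Hspa5 -0.26, Hyou1 -0.47, Manf -0.41, Atf4 -0.34, Ppp1r3b -0.24, Ppp1r3c -0.18, Pygl -0.16, G6pc -1.89, Tkfc -0.83, Pdk4 -0.56, Elovl3 -0.61, Acly -0.73, Fasn -0.54, Insig2 -0.12, Agpat2 -0.34, Angptl8 -0.39, Pnpla3 -1.77, Cyp26a1 -3.54, Cyp26b1 -3.05, Lrat -0.55, Dusp1 -0.93, Atp2b2 -1.80, Chrna4 -0.67, Tubb2a -0.37, Pcp4l1 -1.47, Slc25a25 -1.72, Nat8f5 -1.14, Desi2 -0.44, Leo1 -0.36 and Alb -0.17. Those that were positive were Nr1d1 1.37, Nr1d2 0.31, Ciart 0.35, Bhlhe41 0.52, Dbp 0.39, Tef 0.14, Ppp1r3g 1.99, Pck1 0.23, Slc2a5 0.32, Pdk2 0.31, Pnpla2 0.33, Plin2 0.36, Plin4 0.97, Cidec 2.15, Lipe 0.27, Cpt1a 0.51, Apoa4 0.35, Cfd 1.23, Map1lc3b 0.15, Gabarapl1 0.38, Ulk1 0.55, Slc38a3 0.46, Slc38a4 0.40, Slc23a2 0.49, Serpina3n 0.0277, Egr1 2.04, Junb 1.29, Tap1 0.14, Rgs16 1.82, Gm14097 0.25, Slc5a6 0.55 and Klhdc7a 0.36. Why the fields of the labels differ was not tested.

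The 4 mice per group and between 16859076 and 19384076 counts per sample limit what can be seen in genes of few counts. Treatment cannot be told apart from the order of the numbers in the column names, whose meaning the labels do not state.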
